A study of Mus musculus with 21 samples.

Results

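Compound 6 was compared directly with doxycycline withdrawal in mouse small-intestinal organoids. In both arms the cultures were perturbed for 24 h, but in one the transgenic beta-catenin was kept on beneath a kinase inhibitor and in the other its inducer was taken away. The comparison used 8 of the 21 arrays of the series: 4 arrays of compound 6 and 4 of withdrawal, chosen by their titles and paired by the letters D, E, F and G that the titles share. Each array set organoid RNA (Cy3) against a common mouse reference RNA (Cy5), with no swap of the dyes.

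The organoids were grown from crypts of mice that carry a Tet-O transgene for human, N-terminally myc-tagged ΔN89 beta-catenin, a form without the first residues of the protein, and the M2-rtTA activator expressed from the endogenous ROSA26 promoter. They were kept in Matrigel with epidermal growth factor, Noggin and R-spondin 1, and all of them had been grown with doxycycline, the drug that switches the transgene on. The compound 6 cultures stayed in doxycycline and received 2 µM compound 6. In the withdrawn cultures doxycycline was removed. Vehicle cultures that stayed in doxycycline, 4 arrays with the letters D to G, are given beside both as the shared starting point. Because ROSA26 is active in most cell types, the transgene is not limited to one cell type of the epithelium. The endogenous beta-catenin gene was present in every group, and R-spondin 1 was in the medium of every group. The labels do not say whether the letters stand for separate cultures or animals, so each p-value speaks for the spread of these samples alone, and that spread may be technical.

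Beta-catenin is the transcriptional effector of Wnt signalling: when it is not degraded it binds TCF/LEF factors and switches on a programme that keeps crypt cells dividing and undifferentiated, with Myc, Axin2 and Lgr5 among its textbook targets. CDK8 and CDK19 are paralogous kinases that dock, with cyclin C, MED12 and MED13, on the Mediator complex, which bridges transcription factors and RNA polymerase II. Compound 6 belongs to a 3,4,5-trisubstituted pyridine series that the submitters describe as inhibitors of both kinases, found through a reporter screen of Wnt signalling. The comparison therefore asks where inhibition of the Mediator kinases and loss of the transgenic beta-catenin leave different RNA levels, and where they leave like ones.

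Between 42.6% and 46.5% of probes were well above background on the compound 6 arrays and between 44.8% and 46.2% on the withdrawn arrays. The replicate SD of a gene had a median of 0.139 log2 units with compound 6 and 0.117 after withdrawal. Samples with the same letter deviated together, so the letter was kept as a block in the fit. Letter F stood apart from the other letters: of the 22 sample values among the named genes that lay far from the rest of their group, 16 were from letter F arrays. The slide was not balanced: slide 3 held letters E and G of compound 6 and letters D, E and F of withdrawal, slide 5 held letter D of compound 6 and letter G of withdrawal, and slide 4 held letter F of compound 6 with no withdrawn array. Values within slides 3 and 5 are given for the leading genes.

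Of 21387 genes tested with limma, 7284 (34.1%) differed between compound 6 and withdrawal at an adjusted p below 0.05, 4146 of them higher with compound 6 (19.4% of the genes tested) and 3138 lower (14.7%). The list counts of this comparison below are to be read beside these shares of 19.4% and 14.7%. Relative to vehicle, 17.4% of genes rose and 23.9% fell with compound 6, and 15.3% rose and 23.7% fell after withdrawal. List counts relative to vehicle are to be read beside those. Most differences between the arms were small: 127 genes were at least 2-fold higher and 95 at least 2-fold lower. The 4 compound 6 arrays and the 4 withdrawn arrays did not overlap for 21% of genes, 9.97% higher and 11% lower with compound 6. Without the letter as a block, and with the letter set in its place, 3212 genes passed. The split between higher and lower genes also moved with the scaling: 56.9% of passing genes were higher with compound 6 as analysed here, against 25.3% with median centring, 41.5% using Cy3 signals alone and 45.3% using the scanner software's own ratios. With group terms alone, 1135 genes passed and 45.6% of them were higher.

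The probes behind the leading genes of both directions and behind Myc and Gclc are shown to identify what was measured. Each is given by the first 30 of its 60 bases, 5′ to 3′, and its position is in mm9 on the strand stated.

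Runx1, chr16:92605785-92605844, minus strand: caggagggcccttggaggccaccaggaaga
Fgf18, chr11:33017440-33017499, minus strand: acgaggaaactgcgagaaaccaaagtcctt
Myc, chr15:61821417-61821476, plus strand: aacagttgaaacacaaactcgaacagcttc
Gclc, chr9:77641296-77641355, plus strand: agtgaactggcttgtacattttgaattctt
Zmat4, chr8:25173049-25173108, plus strand: tgaaagaccaatgggatctgttctttttgg
Sgk2, chr2:162839803-162839862, plus strand: tgaggttgctctatgtggacggtgtctttg

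The gene most raised with compound 6 relative to withdrawal was Runx1, a DNA-binding transcription factor best known from blood formation. Its log2 level over the reference was 1.03, 1.18, 2.24 and 1.59 on the compound 6 arrays of letters D, E, F and G, and -1.89, -1.79, -1.51 and -1.70 on the withdrawn arrays. Every compound 6 array was above every withdrawn array, by a wide margin. The difference was 3.23 ± 0.11 log2 units (compound 6 minus withdrawal over 4 pairs, ± SE, limma adjusted p = 4.59e-10), with 3.11 within slide 3 and 2.73 within slide 5. Each SE rests on the spread in the fit to all 21 arrays, not on the 4 pairs alone. Against vehicle, Runx1 was 3.08 higher with compound 6, while after withdrawal the value was -0.15 and did not pass. Its partner subunit gene Cbfb was 0.59 ± 0.09 higher with compound 6 than after withdrawal. The corepressor gene Cbfa2t3 was 0.68 ± 0.09 higher by its brightest probe, but another probe of it gave 0.15. Csf1r, a receptor tyrosine kinase gene known as a Runx1 target in myeloid cells and also on the leukocyte marker list, was 0.96 ± 0.12 higher, with 0.14 to 0.72 from its other probes. Of 8 Runx factors and partners, Runx1 among them, 4 were higher and 0 lower, against 19.4% and 14.7% of all genes.

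Fgf18, a secreted fibroblast growth factor, was the next signalling gene by size. Its levels were 2.19, 2.12, 2.83 and 2.65 with compound 6 and -0.18, -0.13, 0.32 and 0.23 after withdrawal, a difference of 2.39 ± 0.10 (adjusted p = 9.91e-10). Against vehicle it was 2.94 higher with compound 6 and 0.55 higher after withdrawal, so both arms lay on the same side of vehicle but at distinct levels. The FGF pathway list did not move as a block. Of its 17 measured genes, Fgf18 among them, 4 were higher and 2 lower, near the 19.4% and 14.7% of all genes. Etv5 and Spry1, which are induced downstream of FGF receptors, were 0.36 ± 0.08 and 0.49 ± 0.07 higher. Relative to vehicle Etv5 was at -0.20 with compound 6 and -0.56 after withdrawal, and Spry1 at 0.30 and -0.19. Dusp6, also on the list, did not pass between the arms, at -0.03, and was at 0.51 and 0.55 relative to vehicle.

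The other leading genes on the compound 6 side were largely enzymes of xenobiotic handling. Akr1b8, an aldo-keto reductase, was at 1.23, 1.16, 2.07 and 0.93 with compound 6 and at -0.94, -0.76, -0.59 and -1.48 after withdrawal. Cbr3, a carbonyl reductase, was at 3.89, 3.89, 4.36 and 3.50 against 1.80, 2.00, 1.78 and 1.13. In both genes each compound 6 array lay above each withdrawn one, with differences of 2.29 ± 0.16 and 2.23 ± 0.12. Both were above vehicle in both arms, Akr1b8 by 3.01 with compound 6 and 0.72 after withdrawal, Cbr3 by 3.36 and 1.12. The cytochrome P450 gene Cyp2c55 was 2.49 ± 0.22 higher with compound 6 and lay on opposite sides of vehicle (0.98 and -1.51), and Afp, the fetal serum protein alpha-fetoprotein, was 2.26 ± 0.11 higher.

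Cypt1 was at 2.06, 2.14, 2.84 and 2.54 with compound 6 and stayed near background after withdrawal, with 0 of 4 arrays well above it, so its difference is a bound: at least 4.12-fold higher with compound 6 (adjusted p = 2.07e-08). Such a bound sets the bright group's mean against the lowest signal that was well above background, both in the Cy3 channel after normalisation. Abpe, Abpd and Gm6504 belong to one family of androgen-binding protein genes with closely related sequences, so their probes may read each other's transcripts and their separate values are uncertain. They were 2.27 ± 0.21, 1.88 ± 0.21 and 2.09 ± 0.17 higher with compound 6 (another probe of Abpd gave 0.90) and are the leading genes in which letter F matters most. Abpe was at 5.23, 5.09 and 4.91 on letters D, E and G of compound 6 but at 1.89 on letter F, below the withdrawn arrays of letters D, E and G. Adh6a, an alcohol dehydrogenase, was 1.89 ± 0.12 higher here but had the opposite sign with the scanner software's ratios (-0.26) and with the authors' deposited values (-1.22), neither past the threshold.

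**Figure D1:**
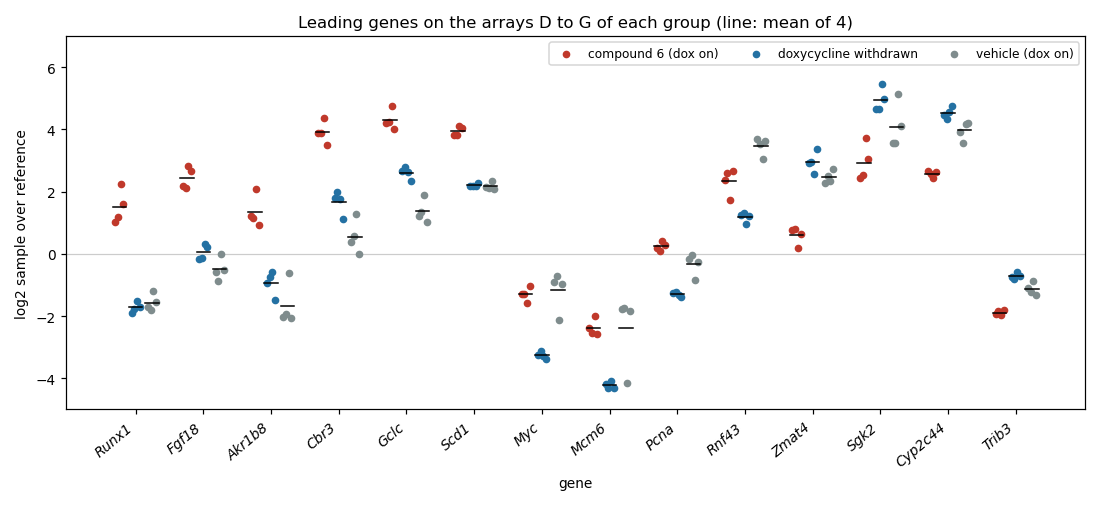
Log2 level over the reference for 14 of the named genes from both directions, with 1 point per array for the compound 6 (red), withdrawn (blue) and vehicle (grey) groups of letters D to G and a line at each mean. Compound 6 and withdrawn arrays do not overlap in any of these genes: Runx1 has compound 6 at 1.03 to 2.24 and withdrawal at -1.89 to -1.51, while Zmat4 has compound 6 at 0.20 to 0.81 and withdrawal at 2.56 to 3.38.

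On the withdrawn side, the largest differences were in major urinary protein genes, which encode pheromone-carrying lipocalins. Mup4 was at 0.78, 0.98, 2.96 and 1.24 with compound 6 and at 3.74, 3.1, 5.44 and 4.65 after withdrawal, letter F being the highest in both arms and the groups not overlapping. The differences were -2.74 ± 0.17 for Mup4, -2.70 ± 0.25 for Mup20, -2.64 ± 0.25 for Mup3 and -2.29 ± 0.18 for Mup5. With compound 6 the Mup5 probe was well above background on 1 of 4 arrays and the Mup3 probe on 3 of 4, so the size of the Mup5 difference in particular is uncertain. These paralogs are nearly identical in sequence and their probes may cross-hybridise, so they count as one observation rather than 4. All 4 lay below vehicle with compound 6 (-2.78 for Mup4), whereas after withdrawal Mup4 was at -0.04 relative to vehicle. The call of Mup20 was lost with the scanner software's ratios and with the authors' deposited values.

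Outside that family, Zmat4, a zinc-finger gene, had levels of 0.76, 0.81, 0.20 and 0.65 with compound 6 and 2.92, 2.94, 2.56 and 3.38 after withdrawal, a difference of -2.34 ± 0.13 (adjusted p = 2.05e-08). Sgk2, a serum- and glucocorticoid-regulated kinase, was at 2.43, 2.53, 3.73 and 3.05 against 4.66, 4.66, 5.46 and 4.97, a difference of -2.0 ± 0.11, with -2.14 within slide 3 and -2.54 within slide 5. Neither gene's groups overlapped, and Zmat4 was well above background on 3 of the 4 compound 6 arrays. In these genes the arms lay on opposite sides of vehicle: Zmat4 was at -1.86 with compound 6 and 0.48 after withdrawal, and Sgk2 at -1.16 and 0.84. The same opposite placement was seen for Cyp2c44, a cytochrome P450 (-1.40 and 0.55 against vehicle), Slc2a7, a sugar transporter (-1.02 and 0.69), Sytl3, a vesicle-trafficking protein (-1.16 and 0.54), Unc93a (-0.80 and 0.87) and Dnahc2, a dynein heavy chain (-0.82 and 0.87). Their direct differences ran from -1.95 for Cyp2c44 to -1.68 for Unc93a. Slc7a15, an amino acid transporter, was also lower, at -1.73 ± 0.27 by its brightest probe and -0.85 to -0.76 by its other probes. The call of Dnahc2 was lost with the scanner software's ratios and the authors' values, and that of Slc2a7 with the authors' values alone.

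**Figure D2:**
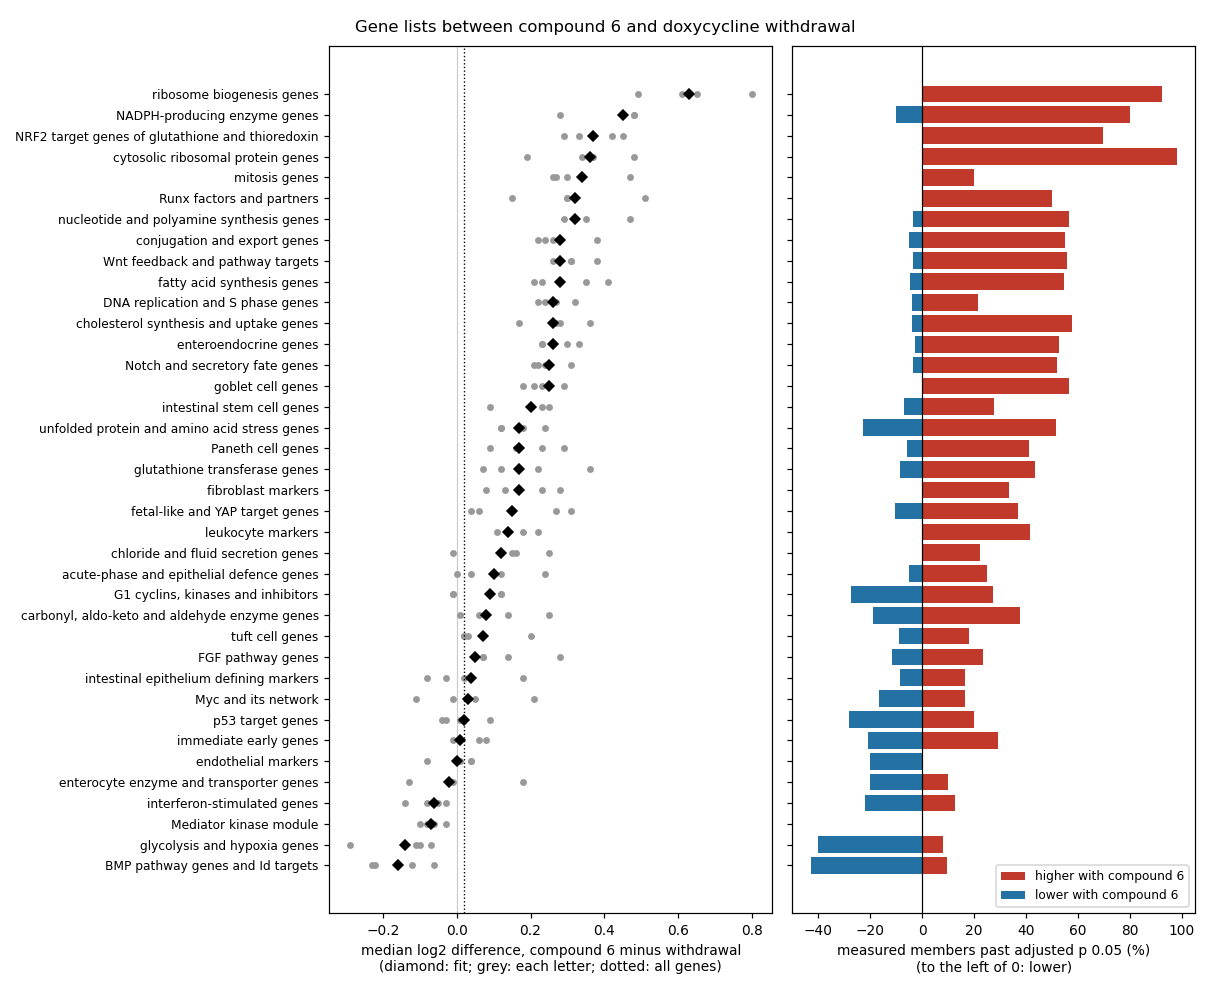
Left, the median log2 difference of each gene list, compound 6 minus withdrawal, from the fit (diamonds) and on each letter (grey points), with the median of all genes dotted at 0.02; right, the percent of measured members higher (red) or lower (blue, left of 0) at a limma adjusted p below 0.05. Ribosome biogenesis genes have the highest median (0.63) and the BMP list the lowest (-0.16).

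The broadest difference between the arms ran through Myc and the machinery that builds ribosomes. Myc, the growth-promoting transcription factor and a direct Wnt target, was at -1.29, -1.29, -1.57 and -1.04 with compound 6 and at -3.25, -3.14, -3.28 and -3.37 after withdrawal. The groups were far apart on every letter, with a difference of 1.96 ± 0.16 (adjusted p = 7.02e-07), 2.06 within slide 3 and 2.08 within slide 5. Withdrawal brought Myc to -2.08 relative to vehicle, while the compound 6 value of -0.12 relative to vehicle did not pass. The vehicle array of letter F was low for Myc, at -2.12 against -0.97 to -0.72 on the other letters, and with that array left out Myc passed as lower with compound 6 than in vehicle (-0.39, adjusted p = 0.00404). The paralog Mycn was 1.26 ± 0.10 higher with compound 6 than after withdrawal, and Mxd1, which competes with Myc for its partner Max, was lower, at -0.59 ± 0.09. For Mxd1 the spot on the letter G withdrawn array was an outlier left out of the fit, so that arm rests on 3 arrays, and the call was lost without the block. The 12 measured genes of the Myc network as a whole had 2 higher and 2 lower, against 19.4% and 14.7% of all genes.

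Of the 53 measured ribosome biogenesis genes (54 listed), 49 were higher with compound 6 than after withdrawal and 0 were lower, where 19.4% of all genes tested were higher. Their median difference was 0.63 log2 units, against 0.02 over all genes tested, and was 0.65, 0.61, 0.49 and 0.80 on letters D, E, F and G. In 41 of the 53 the arrays of the groups did not overlap. Against vehicle, 52 of the genes fell after withdrawal, with a median of -0.89, and 21 fell with compound 6, with a median of -0.24, where 23.7% and 23.9% of all genes fell. These medians share the vehicle arrays and are not independent of each other. They also turn on the vehicle array of letter F, whose list median was -1.68 against -0.63, -0.54 and -0.66 on letters D, E and G: without it 44 genes fell with compound 6 (median -0.37, where 26.9% of all genes fell) and 52 after withdrawal (median -1.03). Between 38 and 49 of the genes were higher under the 4 other scalings tried, and 35 without the letter block.

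Ppan, a factor for assembly of the large ribosomal subunit, had the largest difference in the list. It was at -1.11, -1.0, -1.72 and -1.16 with compound 6 and at -2.46, -2.34, -3.06 and -2.50 after withdrawal, a difference of 1.34 ± 0.13 (adjusted p = 2.65e-06). Letter F was the lowest in both arms, and the groups did not overlap. The next members cover several steps. Grwd1, a ribosome assembly chaperone, was 1.29 ± 0.15 higher (another probe gave 0.58), and Heatr1, needed for ribosomal RNA transcription, 1.15 ± 0.11. Gar1, a subunit of the pseudouridine-forming particles, was 1.14 ± 0.16 higher. Nolc1, a nucleolar chaperone, was 1.13 ± 0.12 higher (another probe gave 0.59), and Polr1b, a subunit of RNA polymerase I, 1.12 ± 0.14. For these 6 genes the compound 6 value relative to vehicle ran from -0.20 for Heatr1 to -0.53 for Gar1, Gar1 alone passing. The withdrawal value ran from -1.34 for Polr1b to -1.67 for Gar1. Without the vehicle array of letter F the compound 6 values ran from -0.37 for Heatr1 to -0.81 for Gar1, and all 6 passed as lower. The withdrawal values then ran from -1.53 for Heatr1 to -1.94 for Gar1.

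**Figure D3:**
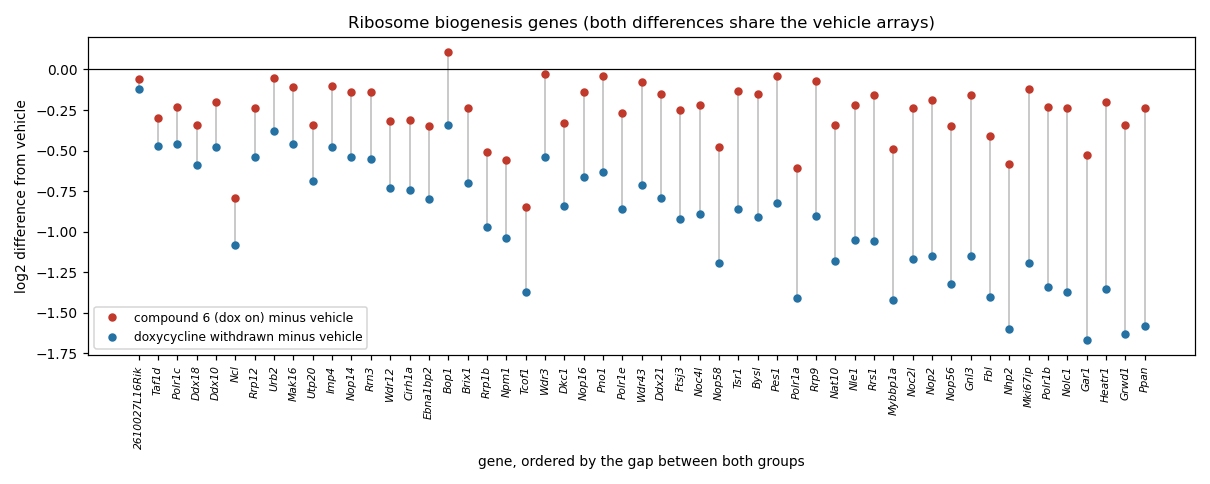
Log2 difference from vehicle for each measured ribosome biogenesis gene, with compound 6 in red and withdrawal in blue, ordered by the gap between them. Compound 6 points lie near or below 0 and withdrawal points lower for every gene, down to -1.67 for Gar1, and the gap widens to 1.34 for Ppan. The vehicle array of letter F, which was low for this list, is included.

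The genes of the ribosomal proteins themselves showed a smaller and less stable difference. Of 49 measured cytosolic ribosomal protein genes, 48 were higher with compound 6, with a median of 0.36, and 0 lower, but in 0 of them were the groups free of overlap. Rpl12, of the large subunit, was 0.61 ± 0.10 higher. It varied among letters more than between arms, being at -1.43, -1.56, -2.60 and -2.21 with compound 6 and at -2.07, -2.04, -3.38 and -2.75 after withdrawal. Of the 49, 0 passed without the letter block. With other scalings 8 (scanner ratios), 5 (Cy3 alone), 2 (median centring) and 25 (authors' values) passed, all higher. The count was 30 without letter F of compound 6. It was 28 without letter D of withdrawal or without all arrays of letter D, vehicle included.

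Among nucleotide and polyamine synthesis genes, which supply a growing cell with precursors, 17 of 30 measured were higher with compound 6 and 1 was lower, with a median of 0.32. Srm, spermidine synthase, was 1.04 ± 0.14 higher, Ctps, CTP synthase, 1.00 ± 0.23, Atic, of late purine synthesis, 0.98 ± 0.15 (another probe gave 0.41), and Impdh2, of guanine nucleotide synthesis, 0.83 ± 0.14. Dropping the letter block left 6 higher, Ctps and Impdh2 not among them. Without letter D of withdrawal or without all letter D arrays, vehicle included, 11 were higher.

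Myc and Max bind the E-box CACGTG, which reads the same on both strands, and Atic and Impdh2 hold this hexamer in the 250 bases before their start in the RefSeq promoters (GRCm38.p6). Stretches of 50 bases are shown, with the hexamer in capitals.

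Atic, chr1:71557106-71557155, plus strand: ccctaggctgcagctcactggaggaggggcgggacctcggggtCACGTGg
Impdh2, chr9:108560306-108560355, plus strand: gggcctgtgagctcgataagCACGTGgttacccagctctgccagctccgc

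The hexamer was present in 6 of the 27 nucleotide and polyamine genes with a promoter window (22.2%), in 3 of 47 ribosome biogenesis genes (6.38%) and in 1854 of all 27025 genes with one (6.86%). The match is a description of these windows and does not show binding.

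Cell cycle genes passed the test less often between the arms than against vehicle. Of 51 measured DNA replication and S phase genes, 11 were higher with compound 6 than after withdrawal and 2 lower, near the 19.4% of all genes that were higher, with a median of 0.26, while 39 fell with compound 6 and 46 fell after withdrawal relative to vehicle. Of 45 mitosis genes, 9 were higher and 0 lower, again near that share, with a median of 0.34, and 36 and 44 fell relative to vehicle. Of all genes, 23.9% fell with compound 6 and 23.7% after withdrawal relative to vehicle. By a rule that asks for a 95% interval of the difference within 1.5-fold either way and a shift past the threshold in the same direction against vehicle in both arms, 17 S phase genes and 15 mitosis genes were alike in both arms. The interval alone lay within 1.5-fold for 87.2% of all genes tested, and 300 list genes moved the same way against vehicle in both arms, 173 of them alike.

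The clearest S phase difference was in Pcna, the sliding clamp of DNA polymerase. It was at 0.18, 0.10, 0.42 and 0.27 with compound 6 and at -1.26, -1.23, -1.33 and -1.38 after withdrawal, a difference of 1.55 ± 0.13 (adjusted p = 9.26e-07). Relative to vehicle it rose with compound 6 (0.57) and fell after withdrawal (-0.98). Mcm6, a subunit of the replicative helicase, was 1.84 ± 0.36 higher with compound 6 and Spag5, a spindle protein, 0.99 ± 0.09. Mcm6 was at -2.59 to -2.01 with compound 6 and at -4.30 to -4.09 after withdrawal, with the vehicle array of letter F at -4.14 and the other vehicle arrays at -1.83 to -1.73. Its differences on letters D, E, F and G were 1.79, 1.76, 2.09 and 1.71, and its SE of 0.36 also holds the spread of the vehicle arrays. Mki67, the proliferation marker, was at -2.93, -3.11, -5.16 and -4.20 with compound 6 and at -3.47, -3.63, -5.57 and -4.90 after withdrawal. Its difference was 0.54 ± 0.25 (limma adjusted p = 0.108), and 0.54, 0.52, 0.41 and 0.70 on letters D, E, F and G. The letter block takes out the spread among letters, which exceeded that difference. The SE also holds the spread of the vehicle arrays, where letter F was at -4.93 and the other letters at -2.06 to -1.82.

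The counts of these lists turned on letter F. Without all arrays of letter F, vehicle included, 27 S phase and 25 mitosis genes were higher, and without letter F of withdrawal alone 20 and 23. Without letter F of compound 6 the counts were 5 and 2. Leaving out letter D, E or G of withdrawal gave 6, 6 and 5 S phase genes and 4, 3 and 2 mitosis genes, and leaving out letter D of compound 6 gave 2 mitosis genes. Without all arrays of letter D, E or G, vehicle included, the S phase counts were 7, 7 and 6. Without all of letter D or E the mitosis counts were 2 and 3. Mki67 passed without letter F of withdrawal (0.75, adjusted p = 0.0428) and without letter G (0.49, adjusted p = 0.0395). The counts without the letter block were 4 and 1. The vehicle array of letter F was itself low for these lists, with a median mitosis gene level of -3.52 against -1.69, -1.64 and -1.81 on letters D, E and G.

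Among G1 regulators 6 of 22 were higher and 6 lower, against 19.4% and 14.7% of all genes. Ccnd2 and Ccnd1, the D-type cyclins that drive entry into the cell cycle, were 1.26 ± 0.17 and 1.01 ± 0.20 higher with compound 6 than after withdrawal. Both lay below vehicle in each arm, Ccnd2 at -1.36 with compound 6 and -2.62 after withdrawal, Ccnd1 at -0.82 and -1.83.

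A second block of differences concerned redox and detoxification genes, most of which stood higher with compound 6 wherever they differed. NRF2, the product of Nfe2l2, is the transcription factor that drives genes for glutathione synthesis and thioredoxin recycling through antioxidant response elements. Of 23 such target genes, all measured, 16 were higher with compound 6 than after withdrawal and 0 lower, with a median of 0.37. Relative to vehicle, 16 rose with compound 6 and 8 rose after withdrawal, with medians of 0.52 and 0.13, where 17.4% and 15.3% of all genes rose. By the interval rule 7 genes were alike in both arms, a set that overlaps the genes called higher. Srxn1, Nfe2l2, Prdx1 and Cat were in both sets. Of the alike genes Prdx1 (-0.24 and -0.44) and Slc48a1 (-0.19 and -0.30) had fallen below vehicle with compound 6 and after withdrawal. Between 9 and 12 were higher under the 4 other scalings, and 13 without the letter block.

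Gclc, the catalytic subunit of glutamate-cysteine ligase, which commits cysteine to glutathione, led the list. Its levels were 4.22, 4.25, 4.75 and 4.02 with compound 6 and 2.67, 2.78, 2.64 and 2.35 after withdrawal. Every compound 6 array was above every withdrawn array and the difference was 1.70 ± 0.11 (adjusted p = 1.09e-07), with 1.44 within slide 3 and 1.87 within slide 5. Gclc rose in both arms relative to vehicle, by 2.94 with compound 6 and 1.24 after withdrawal. Its regulatory partner Gclm was 0.71 ± 0.06 higher, glutathione reductase (Gsr) 1.21 ± 0.08, the cystine importer Slc7a11 (well above background on 3 of 4 withdrawn arrays) 0.91 ± 0.11, the peroxidases Gpx2 and Prdx6 0.94 ± 0.10 and 0.82 ± 0.07, and the quinone reductase Nqo1 0.50 ± 0.09. The other probes of Prdx6 gave 0.41 to 0.79. Gpx2 had no call against vehicle with compound 6 (0.20) and fell after withdrawal (-0.74). Nfe2l2 itself was 0.22 ± 0.07 higher (adjusted p = 0.0301), a call that was lost without letter D or E of compound 6, letter E or F of withdrawal or either whole letter D or E, with adjusted p from 0.0745 to 0.121.

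Windows from 3 NRF2 list members and 1 glutathione transferase hold the core of the antioxidant response element, searched as TGACNNNGC on both strands (GCNNNGTCA on the reverse), in the 250 bases before the start (RefSeq, GRCm38.p6). The match is in capitals.

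Gclm, chr3:122245403-122245452, plus strand: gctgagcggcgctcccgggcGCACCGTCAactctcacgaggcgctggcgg
Txnrd1, chr10:82859094-82859143, plus strand: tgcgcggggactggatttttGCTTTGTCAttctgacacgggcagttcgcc
Nfe2l2, chr2:75704864-75704913, minus strand: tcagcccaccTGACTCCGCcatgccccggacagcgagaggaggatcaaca
Gsta3, chr1:21240444-21240493, plus strand: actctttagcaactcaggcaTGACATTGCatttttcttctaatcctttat

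Such a match was found in 4 of 18 NRF2 list genes with a window (22.2%), in 4 of 21 glutathione transferase genes (19.0%) and in 3112 of all 27025 genes with one (11.5%). Not all matches are shown. The NRF2 list match left out was in Prdx1, at -0.24 with compound 6 and -0.44 after withdrawal relative to vehicle. The NRF2 list genes shown lay above vehicle with compound 6. Txnrd1, thioredoxin reductase, is named for its window after its values were seen: it was 0.37 ± 0.07 higher with compound 6, a call lost under median centring and when Cy3 signals were used alone.

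NADPH-producing enzymes, which feed glutathione and thioredoxin reductases, were higher with compound 6 in 8 of 10 cases and lower in 1, with a median of 0.45. Pgd and G6pdx of the pentose phosphate pathway were 0.80 ± 0.06 and 0.52 ± 0.08 higher. Malic enzyme (Me1) was 0.53 ± 0.07 higher, with 0.3 to 0.54 from its other probes. The exception was H6pd, the hexose-6-phosphate dehydrogenase of the endoplasmic reticulum, at -0.64 ± 0.06. Without the letter block 4 were higher, Me1 not among them, and with median centring 3.

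Glutathione transferases, which attach glutathione to electrophiles, were higher in 10 of 23 cases and lower in 2, with a median of 0.17 that was -0.01 with median centring. Gstm2, Gstm4 and Gsta3 led them with 1.31 ± 0.07, 1.13 ± 0.11 and 0.99 ± 0.10, although another probe of Gstm4 gave 0.32. Members of these families share sequence, so the probes may read more than one. Of 32 carbonyl, aldo-keto and aldehyde enzyme genes 12 were higher and 6 lower, against 19.4% and 14.7% of all genes. Their median of 0.08 turned negative with the scanner ratios (-0.01) and median centring (-0.12). Adh7, an alcohol dehydrogenase, was 1.32 ± 0.13 higher. Without letter E of either arm, or without all letter E arrays, vehicle included, 3 genes of this list were lower, and without the letter block 1. Conjugation and export genes were higher in 11 of 20 cases and lower in 1, among them the exporter gene Abcc3 (0.53 ± 0.07) and Ugdh (0.49 ± 0.08), which makes the donor for glucuronidation. Without the letter block 5 of these were higher and the call of Abcc3 was lost.

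Among lipid synthesis genes more were higher than lower with compound 6. Scd1, the stearoyl-CoA desaturase that makes monounsaturated fatty acids, was at 3.82, 3.81, 4.10 and 4.05 with compound 6 and at 2.19, 2.19, 2.18 and 2.27 after withdrawal. The difference of 1.74 ± 0.07 (adjusted p = 9.91e-10) lay almost wholly on the compound 6 side, 1.77 above vehicle, with 0.03 after withdrawal. Of 22 fatty acid synthesis genes 12 were higher and 1 lower, where 19.4% and 14.7% of all genes were, with a median of 0.28. The elongase Elovl5 and the desaturase Fads2, both of polyunsaturated fatty acid synthesis, were 0.92 ± 0.08 and 0.87 ± 0.11 higher, but for them the shift from vehicle was on the withdrawn side, at -0.82 and -0.88, against 0.10 and -0.01 with compound 6. Another probe of Fads2 gave a difference of 0.48. Elovl6 was 0.66 ± 0.06 higher.

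Of 26 cholesterol synthesis and uptake genes 15 were higher and 1 lower, with a median of 0.26. Mvd, Cyp51 and Pmvk, enzymes of the mevalonate and sterol pathways, were 0.66 ± 0.06, 0.59 ± 0.08 and 0.55 ± 0.06 higher. Relative to vehicle the list's median was 0.17 with compound 6, where 14 genes rose and 2 fell, and -0.16 after withdrawal, where 0 rose and 10 fell. Of all genes, 17.4% rose and 23.9% fell with compound 6, and 15.3% rose and 23.7% fell after withdrawal. With median centring 6 of the cholesterol genes were higher.

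**Figure D4:**
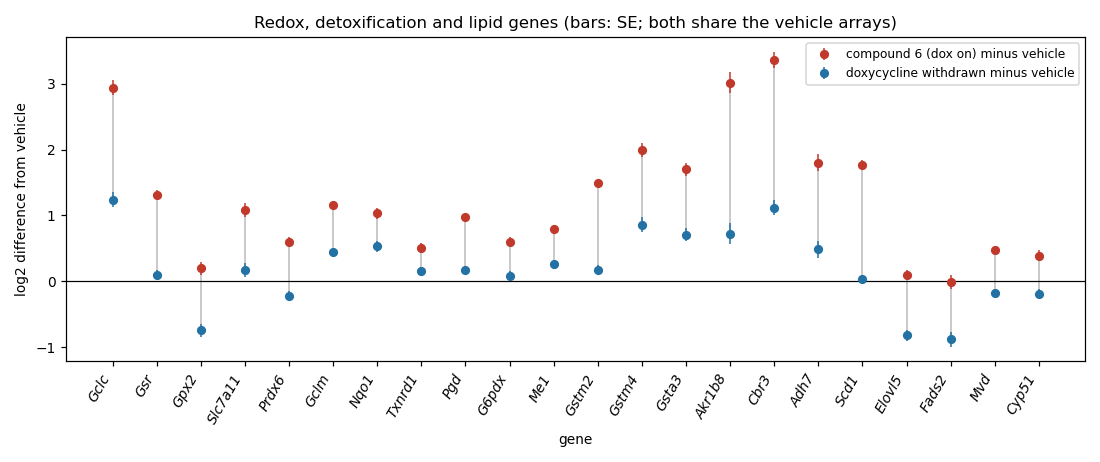
Log2 difference from vehicle (± SE) for redox, detoxification and lipid genes, with compound 6 in red and withdrawal in blue, both measured against the same vehicle arrays. Compound 6 points lie above withdrawal points for each gene: Gclc is above vehicle in both arms (2.94 and 1.24), Scd1 with compound 6 alone (1.77 and 0.03), and Fads2 is below vehicle after withdrawal alone (-0.01 and -0.88).

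Some Wnt target and stem cell genes were higher with compound 6 and some, partly the same, met a rule for like levels in both arms. Of 27 measured Wnt feedback and pathway targets, 15 were higher with compound 6 than after withdrawal and 1 was lower, with a median of 0.28. Relative to vehicle, 15 fell with compound 6 and 17 fell after withdrawal, with medians of -0.38 and -0.99, where 23.9% and 23.7% of all genes fell. Of 29 measured intestinal stem cell genes, 8 were higher and 2 lower, against 19.4% and 14.7% of all genes, with a median of 0.20. Relative to vehicle 20 of them fell in each arm, with medians of -0.48 and -0.82, beside the same 23.9% and 23.7% of all genes. The lists share members, and organoid RNA is a mixture of cell types, so fewer stem cells and less RNA per stem cell cannot be told apart.

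Rnf43, a ubiquitin ligase that removes Wnt receptors, was at 2.38, 2.59, 1.73 and 2.68 with compound 6 and at 1.25, 1.32, 0.96 and 1.23 after withdrawal. The groups did not overlap and differed by 1.15 ± 0.09 (adjusted p = 5.54e-07), both being below vehicle, at -1.13 and -2.29. Kcne3, a potassium channel subunit of crypt cells, was 1.80 ± 0.19 higher, but letter F of compound 6 was at 1.47 against 3.42 to 3.63 on the other letters, and with the authors' values the sign turned to -2.13. Slc12a2, the chloride importer of crypt cells, was 1.36 ± 0.25 higher, Phlda1 0.96 ± 0.10, and Sox9, a crypt transcription factor, 0.93 ± 0.16. Ascl2, a transcription factor that maintains the stem cell state, was 0.94 ± 0.20 higher, at 2.16, 2.18, 0.69 and 2.57 with compound 6 and 0.95, 1.08, 0.79 and 1.03 after withdrawal. The groups of Ascl2 overlapped through letter F, and its call was lost without the letter block.

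By the interval rule 6 genes of the Wnt list and 10 of the stem cell list were alike, with Axin2, which could not be settled, counted in both. This set overlaps the genes called different. Tcf7 of the Wnt list was 0.24 higher with compound 6 (limma adjusted p = 0.0281). Bmi1 of the stem cell list was lower, at -0.37 (limma adjusted p = 0.000413). Sp5, a zinc-finger gene induced by beta-catenin, was at -1.76 relative to vehicle with compound 6 and at -1.68 after withdrawal, and the 95% interval of the difference between the arms was -0.42 to 0.27. Its letters did not agree, with differences of 0.23, -0.06, -0.89 and 0.42 on D, E, F and G. Letter F of compound 6 was at 2.25 against 3.47 to 4.16 on the other letters. Aqp4, a water channel of crypt base cells, was at -1.30 and -1.40 relative to vehicle, with an interval of -0.37 to 0.58. Its letters did not agree either, with differences of 0.44, 0.36, -0.28 and -0.11, and 3 of 4 compound 6 arrays were well above background. The vehicle array of letter F was at 0.3 for Aqp4 against 2.21 to 2.33 on the other letters, and without it the values were -1.68 and -1.78. Znrf3, the paralog of Rnf43, was well above background on 3 of 4 compound 6 and 2 of 4 withdrawn arrays and was at -0.38 and -0.53 with an interval of -0.02 to 0.32, and passed without letter D of compound 6 (0.24, adjusted p = 0.0295). Lrig1, a growth factor receptor inhibitor, passed the test yet met the rule, at 0.34 with an interval of 0.19 to 0.50. Notum, a secreted Wnt inhibitor, was 0.39 above vehicle with compound 6 and 0.22 after withdrawal, with an interval of 0.02 to 0.32. It passed without letter F of compound 6 (0.25, limma adjusted p = 0.0164) or without all letter F arrays, vehicle included (0.24, adjusted p = 0.0203).

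Axin2, the scaffold of the beta-catenin destruction complex and the usual reporter of Wnt activity, could not be settled. It was at -0.23, -0.16, -0.66 and -0.07 with compound 6, where 1 of 4 arrays was well above background, and at -0.58, -0.61, -0.47 and -0.57 after withdrawal, where 0 of 4 were. The difference was 0.28 ± 0.13 (adjusted p = 0.104) with an interval of 0.01 to 0.55. With letter F of withdrawal left out it was 0.46 (limma adjusted p = 0.00213), and with all letter F arrays, vehicle included, left out 0.43 (adjusted p = 0.00359). It passed at 1.94 with the scanner ratios, 1.85 with Cy3 signals alone and 3.64 with the authors' values. Lgr5, the stem cell receptor for R-spondins, was at 1.40, 1.13, 0.79 and 1.17 against 0.72, 0.79, 0.76 and 0.80, a difference of 0.35 ± 0.38 (adjusted p = 0.518) with an interval of -0.46 to 1.17 that allows more than 2-fold higher. On letters D, E, F and G the difference was 0.68, 0.34, 0.02 and 0.37. The SE and interval also hold the spread of the vehicle arrays, so they do not describe the 2 compared groups alone. Lgr5 passed with all letter F arrays, vehicle included, left out (0.47, adjusted p = 0.0164). Relative to vehicle Lgr5 fell in both arms, to -2.16 and -2.51, values that include a low vehicle array of letter F (1.0 against 4.24, 4.16 and 3.71 on letters D, E and G). Without that array they were -2.86 and -3.21.

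The stem cell list had 12 genes higher without letter F and 5 without the letter block, and the Wnt list 18 and 10. With median centring 8 Wnt genes were higher.

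Of the listed genes with a promoter window, Sp5 and Tnfrsf19 hold the TCF/LEF core CTTTGAT on the plus strand or its reverse complement ATCAAAG in the 250 bases before the start, in 2 of 18 genes of the Wnt list (11.1%) and 2 of 21 of the stem cell list (9.52%), against 1005 of all 27025 genes (3.72%). The core is in capitals.

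Sp5, chr2:70474799-70474848, plus strand: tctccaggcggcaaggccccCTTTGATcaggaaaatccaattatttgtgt
Tnfrsf19, chr14:61038160-61038209, minus strand: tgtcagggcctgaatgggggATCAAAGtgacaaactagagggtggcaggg

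Tnfrsf19, a receptor gene of stem cells named here for its window after its values were seen, was at -1.51 and -1.80 relative to vehicle, with a difference of 0.28 ± 0.15 between the arms (adjusted p = 0.152). It was well above background on 1 compound 6 array and 0 withdrawn arrays.

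**Figure D5:**
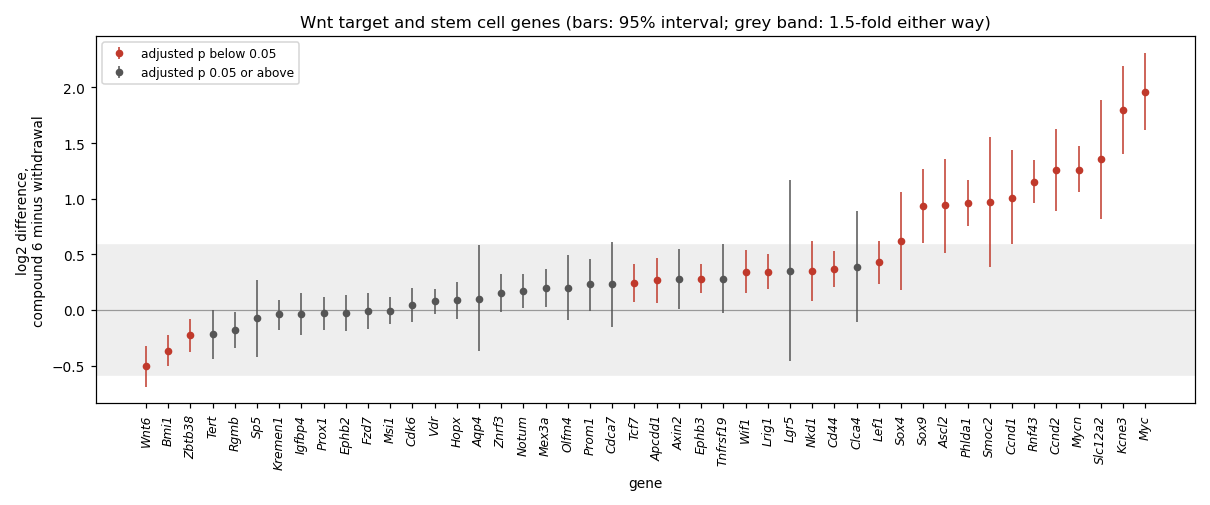
Log2 difference, compound 6 minus withdrawal, with its 95% interval for each measured Wnt target and stem cell gene, in order. Red points passed at an adjusted p below 0.05 and the grey band marks 1.5-fold either way: Sp5 and Aqp4 lie within it, the interval of Lgr5 leaves it, and Rnf43, Kcne3 and Myc lie above it.

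Of 18 chloride and fluid secretion genes of the crypt 4 were higher and 0 lower, against 19.4% and 14.7% of all genes, with a median of 0.12 that was negative with the scanner ratios (-0.01), median centring (-0.03) and the authors' values (-0.04). Besides Kcne3 and Slc12a2 these were Kcnq1, the channel that Kcne3 regulates (1.00 ± 0.13), and Aqp1, a water channel (0.99 ± 0.19). Without letter G of compound 6, 7 were higher, and the call of Aqp1 was lost without the letter block.

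Genes of the secretory lineages were more often higher than lower with compound 6 in the Notch and secretory fate, enteroendocrine, goblet and Paneth lists, but not all of these counts held under other scalings. Of 27 Notch and secretory fate genes 14 were higher and 1 lower, against 19.4% and 14.7% of all genes, with a median of 0.25. Neurog3, the factor that commits progenitors to the enteroendocrine fate, was at 5.51, 5.51, 5.00 and 5.52 with compound 6 and at 3.91, 3.97, 3.25 and 4.10 after withdrawal. Each compound 6 array exceeded each withdrawn one, by 1.58 ± 0.11 in the fit (adjusted p = 1.09e-07), with 1.43 against vehicle for compound 6 and -0.15 for withdrawal. Dll4, a Notch ligand, was 0.88 ± 0.11 higher, Atoh1, the master factor of secretory cells, 0.86 ± 0.21, Gfi1, which acts below Atoh1, 0.85 ± 0.08, and Spdef, which matures goblet and Paneth cells, 0.67 ± 0.10. Atoh1 overlapped through letter F (3.88 with compound 6 and 3.92 after withdrawal), and the calls of Atoh1 and Dll4 were lost with the scanner ratios.

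Of 38 measured enteroendocrine genes 20 were higher and 1 lower, with a median of 0.26. Relative to vehicle 24 rose with compound 6 and 9 after withdrawal, where 17.4% and 15.3% of all genes rose. Gcg, the proglucagon gene of L cells, was at 5.41, 5.43, 4.57 and 5.37 with compound 6 and at 4.04, 3.96, 1.88 and 3.79 after withdrawal. Letter F was the lowest in both arms, and the difference was 1.78 ± 0.15. The prohormone convertase gene Pcsk1 was 1.29 ± 0.21 higher, the granule protein gene Scg2 1.13 ± 0.11, and the transcription factor genes Pax4 and Insm1 1.06 ± 0.09 and 0.69 ± 0.11. These levels were sensitive to the scaling: with the scanner ratios 6 genes were higher and with the authors' values 3. The sign of Gcg turned with the authors' values (-0.13), its call and those of Pax4, Insm1 and Scg2 were lost with the scanner ratios, and the calls of Pax4 and Insm1 were also lost without the letter block.

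Goblet cell genes were higher in 13 of 23 cases and lower in 0, with a median of 0.25. Foxa3, a transcription factor of goblet and enteroendocrine cells, was 0.59 ± 0.12 higher and St3gal6, a sialyltransferase, 0.57 ± 0.07. Of the goblet genes 6 were higher without the letter block. Paneth cell genes were higher in 7 of 17 cases and lower in 1. The higher count was 1 without the letter block, 2 with the scanner ratios and with the authors' values, and 11 with Cy3 signals. It was 4 for these genes without letter D of either arm, without all letter D arrays or without letter E of withdrawal. Their median of 0.17 was -0.01 with the authors' values. Mmp7, the protease that activates Paneth cell defensins, was 1.08 ± 0.15 higher here and had the opposite sign with the authors' values (-0.36), while the stress-responsive Nupr1 was 0.79 ± 0.07 higher.

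Of 22 tuft cell genes 4 were higher and 2 lower, near or under the 19.4% and 14.7% of all genes. Cd24a was 0.95 ± 0.08 higher with compound 6, whereas Rgs13, a regulator of G protein signalling, was lower at -1.04 ± 0.16. Among 40 enterocyte enzyme and transporter genes 4 were higher and 8 lower, with a median of -0.02, a balance that became 8 higher and 19 lower with the Cy3 channel alone and 8 higher and 4 lower without letter G of compound 6. The higher count was 2 without letter D of either arm or letter E of compound 6, and the lower count 4 without letter E of withdrawal. Pck1, of gluconeogenesis, was at -0.81 ± 0.20, the neutral amino acid transporter Slc6a19 at -0.55 ± 0.13 and adenosine deaminase (Ada) at -0.78 ± 0.15, while the cytochrome P450 gene Cyp3a11 was 0.64 ± 0.13 higher by its brightest probe and 0.14 by another. None of these 4 calls held without the letter block, and those of Pck1 and Cyp3a11 were also lost with the scanner ratios.

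The glycolysis and hypoxia list and the BMP list had more genes lower than higher with compound 6. Of 25 glycolysis and hypoxia genes 10 were lower and 2 higher, where 14.7% and 19.4% of all genes were, with a median of -0.14. Bnip3, a mitophagy receptor induced by hypoxia, was at -2.37, -2.46, -2.80 and -2.87 with compound 6 and at -1.70, -1.68, -1.93 and -1.63 after withdrawal, a difference of -0.89 ± 0.09. Its groups did not overlap. Ankrd37 and Adm, further hypoxia-induced genes, were both at -0.70, with SEs of 0.14 and 0.17. Without the letter block 1 gene of this list was lower, and under the 4 other scalings between 14 and 18 were.

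In the BMP pathway, which restrains crypt growth, 9 of 21 genes were lower with compound 6 and 2 higher, with a median of -0.16. Of the Id genes, the usual readout of BMP signalling, Id2 was at -0.70 ± 0.09. Id1 did not pass, at -0.11 with an interval of -0.29 to 0.07 (limma adjusted p = 0.35). It lay below vehicle in both arms, at -0.36 with compound 6 and -0.25 after withdrawal, so the Id genes did not move together. Id4 was at 0.72 ± 0.11, but its probe was well above background on 3 of 4 compound 6, 1 of 4 withdrawn and 0 of 4 vehicle arrays, so this value is uncertain. The ligand gene Bmp2 was at -0.62 ± 0.14. Without the letter block 4 were lower, and Id2 and Bmp2 did not pass.

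Among 25 p53 target genes 5 were higher and 7 lower, against 19.4% and 14.7% of all genes, with a median of 0.02. The death receptor genes Fas and Tnfrsf10b were lower with compound 6, at -0.92 ± 0.10 and -0.79 ± 0.06. Fas was at 0.74, 0.78, 1.01 and 0.59 with compound 6 and at 1.66, 1.63, 1.88 and 1.64 after withdrawal, and had risen 0.88 above vehicle in the withdrawn arm with -0.04 in the other. Aen, a p53-induced nuclease, went the other way, 1.30 ± 0.14 higher with compound 6. These counts were 3 and 4 without the letter block.

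Unfolded protein and amino acid stress genes went both ways, 16 of 31 higher and 7 lower, with a median of 0.17 that was -0.08 with median centring. Trib3, a pseudokinase induced by ATF4, was at -1.95, -1.85, -1.96 and -1.81 with compound 6 and at -0.76, -0.82, -0.58 and -0.70 after withdrawal, a difference of -1.18 ± 0.09 (adjusted p = 5.42e-07). Psat1 and Asns, which make serine and asparagine and are likewise ATF4 targets, were 0.80 ± 0.12 (another probe gave 0.27) and 0.56 ± 0.06 higher. For these biosynthetic genes the shift from vehicle was on the withdrawn side (-0.73 and -0.51), with 0.07 and 0.05 for compound 6. Both counts were 3 without the letter block, and the lower count was 4 without letter F of compound 6.

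For the next 4 lists the shares of all genes were again 19.4% higher and 14.7% lower. Interferon-stimulated genes numbered 4 higher and 7 lower of 32, with Oas1a, a sensor of double-stranded RNA, at -0.60 ± 0.07. Immediate early genes numbered 7 higher and 5 lower of 24, with Nr4a1, a nuclear receptor, 0.64 ± 0.07 higher. The fetal-like and YAP target list had 7 of 19 higher and 2 lower, including Areg, an epidermal growth factor receptor ligand (0.79 ± 0.10), and Cldn4, a tight junction protein, at 0.87 ± 0.12, whose sign turned with the scanner ratios (-0.03) and the authors' values (-0.02). Of 20 acute-phase and epithelial defence genes 5 were higher and 1 lower, with the cytokine gene Il18 1.33 ± 0.11 higher. The lower counts of the interferon and immediate early lists were 3 and 1 without the letter block, and the higher counts of these 4 lists were 2, 3, 4 and 2, with Areg among the calls lost. Single arrays moved some of these small counts: the fetal-like list had 0 lower genes without letter D of either arm. The interferon list had 2 higher without letter D or E of withdrawal or letter G of either arm, and 1 without all letter E arrays, vehicle included. The immediate early list had 2 lower without letter D of withdrawal or letter G of compound 6, and 3 without letter D of compound 6 or letter E or G of withdrawal.

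The genes of the perturbed proteins themselves did not pass the test between the arms. Ctnnb1, the mouse beta-catenin gene, was at 0.72, 0.70, 0.79 and 0.71 with compound 6 and at 0.79, 0.78, 0.87 and 0.82 after withdrawal, a difference of -0.09 ± 0.05 (adjusted p = 0.154) with an interval of -0.19 to 0.01. Under the other scalings the value passed as lower, from -0.16 with the scanner ratios to -0.30 with median centring. No probe for the human transgene was used here, and whether the mouse probe also reads it was not tested, so the removal of transgene RNA was not measured directly.

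Of 6 measured Mediator kinase module genes 0 were higher and 0 lower by limma. Cdk8 was at 0.11 ± 0.06 (adjusted p = 0.156), its paralog Cdk19 at -0.19 ± 0.07 (adjusted p = 0.0518), cyclin C (Ccnc) at 0.05 ± 0.08 with an interval of -0.11 to 0.21, and Med12 at -0.07 ± 0.06 with an interval of -0.19 to 0.06. Cdk19 passed as lower when letter D of either arm or letter G of withdrawal was left out (-0.23 without letter D or letter G of withdrawal, -0.22 without letter D of compound 6). It also passed as lower without all letter D arrays, vehicle included (-0.24), and under the other scalings. Cdk8 passed as higher without letter E of compound 6 (0.17, adjusted p = 0.0272). Transcript level says nothing of kinase activity, which is what the compound targets.

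Defining markers of intestinal epithelium were well expressed in both arms, with 2 of 12 higher and 1 lower with compound 6 and list medians of 4.32 to 4.57 with compound 6 and 4.35 to 4.46 after withdrawal. Epcam, the epithelial adhesion molecule, was at -0.13 ± 0.07 (adjusted p = 0.18), and Krt18, a keratin, 0.67 ± 0.08 higher. Of markers of cells that such cultures should lack, the fibroblast list had medians of -5.39 to -5.13 with compound 6, -5.43 to -5.32 after withdrawal and -5.51 to -5.36 in vehicle, with Vim and Col1a1 between -6.51 and -7.54 on all 8 arrays. In that list 4 of 12 genes were higher with compound 6 and 0 lower, among them Vim (0.45 ± 0.08) and Col1a1 (0.32 ± 0.06). Without letter G of compound 6, 7 were higher, without letter F of withdrawal or without letter E 2, and without the letter block 2. The leukocyte list had medians of -1.83 to -1.60, -2.23 to -2.07 and -2.33 to -2.16 in the same order, with 5 of 12 higher and 0 lower, Csf1r and Fcer1g (0.35 ± 0.07) among them, and 3 higher without letter F of either arm, without letter D of withdrawal or without the letter block. Of the endothelial list 0 of 5 were higher and 1 lower, with medians of -0.17 to 0.06, -0.30 to -0.08 and -0.57 to -0.04, levels relative to the reference that do not tell whether such cells were present. The fibroblast and leukocyte medians turned to -0.01 with median centring, and the part that such cells or the scaling have in any of the differences above was not tested.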

How the data were processed

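RNA of organoids (Cy3) and of a common reference (Cy5) was hybridised to 2-colour Agilent arrays, and the deposited spot intensity values were extracted with Agilent Feature Extraction 10.7.3.1, per the file headers, which also give probe positions in mm9. The authors' deposited value table holds log2 ratios with a processing that no source used here states, and the deposited scanner files also hold log10 ratios; both served as alternatives. Cell cultures, treatments and letters were taken from the labels.

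Intensities were corrected with normexp (offset 50) and within-array loess in limma 3.58.1 (R 4.3.3), leaving out control and non-uniform spots. Probes well above background on at least 3 arrays were kept (29648 of 55681), the brightest standing for its gene: 21387 genes, of which 13811 matched a RefSeq gene. One fit covered all 21 arrays with a term per group and the letter as replicate block, tested two-sided, with Benjamini-Hochberg adjustment over all genes at 0.05. Pairing rests on the titles' letters: deviations of same-letter samples correlated at 0.209 to 0.748 over 21 pairs (0.307 to 0.747 over the 4 pairs of this comparison), those of other letters with a median of -0.179. The fit was tested on simulated data.

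Named were, per direction, the 12 largest differences with adjusted p below 0.05, one sign in 4 of 4 letters, a RefSeq symbol and a probe well above background on all 4 arrays of a group; up to 6 passing members of each list; and a set of always-named genes. Members, lists and always-named genes were chosen with earlier results of these data known. The number of arrays limits the precision. Alternatives were other scalings, filters, probe rules, blocks, slides, weights, subsets of arrays and leaving out arrays; the closing section gives their effect. For 13 of 889 listed genes the probe lies, by the deposited files, on another chromosome than the RefSeq gene; these are counted in their lists and none is named. One named gene is not reported here.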

Additional observations from a re-analysis of the deposited data

Results flagged for a closer look

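In 22 of 273 groups of 4 arrays among the named genes (8.06%), 1 array lay farther from the others than Dixon's 95% critical value allows, where chance gives about 1 in 20. Of these arrays 16 were of letter F and 2 each of letters D, E and G. No explanation was tested.

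On the letter F array of compound 6, Abpe was at 1.89 (other letters 4.91 to 5.23), Gm6504 at 1.76 (4.51 to 4.81), Abpd at 2.08 (4.52 to 4.90), Kcne3 at 1.47 (3.42 to 3.63) and Mmp7 at 2.47 (4.17 to 4.26). The same array was low for the nucleotide synthesis genes Ctps, at -4.76 (-4.03 to -3.96), and Atic, at -2.48 (-1.67 to -1.54), and for the enteroendocrine genes Neurog3, at 5.00 (5.51 to 5.52), and Gcg, at 4.57 (5.37 to 5.43). It was high for Adh7, at 3.45 (1.58 to 1.87), H6pd, at -0.51 (-0.72 to -0.71), and Ctnnb1, at 0.79 (0.70 to 0.72).

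On the letter F array of withdrawal, Gcg was at 1.88 (3.79 to 4.04) and Scg2 at 2.31 (3.68 to 3.71), both low, while Cd24a was at 1.86 (1.35 to 1.44) and Fas at 1.88 (1.63 to 1.66), both high. The low letter F values of Gcg were thus seen in both arms.

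The remaining values were from letters D, E and G. Pax4 was at 3.67 on letter G (3.42 to 3.43) and Insm1 at 4.84 on letter E (5.22 to 5.26) of compound 6. After withdrawal Znrf3 was at 0.12 on letter E (-0.17 to -0.12), Scd1 at 2.27 on letter G (2.18 to 2.19), Id4 at 0.09 on letter D (-0.05 to -0.03) and Epcam at 3.74 on letter D (3.81 each).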

How the results depend on the processing

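The count of 7284 genes fell when the letter was left out of the fit. With no replicate block and the letter set in its place 3212 passed (1561 higher, 1651 lower), with group terms only 1135 (517 higher, 618 lower, 121 at least 2-fold), and within slide 3 alone, which takes fewer arrays as well as no replicate block, 800 (462 higher, 338 lower). Median centring without loess left 1413 genes higher. At least 2-fold differences numbered 222, against 681 with the scanner software's ratios, 801 with the Cy3 channel and 554 with the authors' values. Leaving out 1 array or 1 letter gave 5653 to 6774 genes passing, 3051 to 3978 higher, 2383 to 2844 lower and 207 to 250 at least 2-fold. The other alternatives stayed within 1.5 times these counts.

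Of 123 named genes that passed, 83 lost the call somewhere, 66 of them with group terms only, 46 within slide 3 and 24 with the letter set, and 44 of the 137 named genes kept both direction and side of the threshold under all 26 alternatives. The sign turned for 5: Adh6a (-0.26 with the scanner ratios, -1.22 with the authors' values), Cldn4 (-0.03 and -0.02), Kcne3 (-2.13), Gcg (-0.13) and Mmp7 (-0.36), the last 3 with the authors' values. The cause was not tested. Id1, Srxn1, Prdx1, Cat, Slc48a1, Dusp6, Tcf7 and Bmi1, named beside their lists, are outside these 137 genes. Leaving out the vehicle array of letter F, chosen after seeing the data, gave 9650 genes differing between compound 6 and vehicle (8825 with it) and 8975 between withdrawal and vehicle (8354). Signal over background limits Axin2, Tnfrsf19, Znrf3, Id4, Mup5 and Cypt1, whose probes were dim on several arrays.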
